A study of Mus musculus with 40 samples.

Results

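The 36 mouse genes described here carry the symbols of constitutive proteasome subunits, out of 19937 genes measured on 40 brain arrays. They were taken by symbol alone: all genes named Psma, Psmb, Psmc or Psmd with a number were kept, apart from Psmb8, Psmb9 and Psmb10, the catalytic subunits of the immunoproteasome. Where a gene had several probe sets with 1 symbol, the one with the highest mean was used. The set held 8 genes of the 20S alpha ring and, of the 20S beta ring, 3 constitutive catalytic genes and 5 others. It also held 6 ATPase genes of the 19S cap and 14 other 19S genes. The arrays held RNA from brains or hemispheres of C57/Bl6 pups at postnatal day 9, with 5 arrays in each of 8 groups. IDR-1018 is a synthetic peptide studied for its effects on innate immunity, LPS is the bacterial lipopolysaccharide, and hypoxia-ischaemia (HI) models perinatal brain injury.

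The first pair of groups held the left (injured) and right (uninjured) hemispheres of pups given IDR-1018, then LPS 4 h later and HI 14 h after LPS, with brains taken 6 h after HI. The second pair held both hemispheres of pups given vehicle in place of the peptide on the same schedule. The LPS with IDR-1018 group received the peptide 4 h before LPS and was taken 6 h after LPS, and the LPS group was likewise taken 6 h after LPS. The IDR-1018 and Vehicle groups were taken 10 h after the peptide or vehicle. The uninjured hemisphere had therefore also seen LPS and hypoxia, 20 h and 6 h before removal. The labels name no vehicle for the LPS group and do not say that arrays within a group are separate animals, so p-values measure the spread between these arrays, which may be in part technical.

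The proteasome is the protease that degrades proteins tagged with ubiquitin. Its 20S core is a barrel of alpha and beta rings, with the proteolytic sites on the beta subunits encoded by Psmb5, Psmb6 and Psmb7. The 19S cap recognises, unfolds and feeds in the substrate: a base with a ring of ATPases (Psmc genes) and a lid that removes ubiquitin. In cells exposed to interferon, Psmb8, Psmb9 and Psmb10 can replace the constitutive catalytic subunits. The transcription factor NRF1, encoded by Nfe2l1, is known to raise subunit genes together when proteasome activity falls short.

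The label "constitutive subunit" was not exact for 5 of the 36. Psma8 is known as a testis form and Psmb11 as a thymus form, and both lay below the lower quartile of all gene means. Psma8 averaged 5.31 and Psmb11 5.85 over the 40 arrays. The other 34 lay above that quartile, with means between 8.20 for Psmd9 and 12.25 for Psmb3. Psmd5, Psmd9 and Psmd10 encode chaperones that assemble the 19S base and leave the finished particle.

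Markers of neurons (8 genes), astrocytes (6), the oligodendrocyte lineage (6), microglia (6) and endothelium (6) all averaged above the lower quartile of gene means, 6.04 on the log2 scale. Arrays of both sexes were present: Xist was high in 3 and 3 of 5 arrays of the injured and uninjured hemispheres with peptide, in 4 and 4 without peptide, in 2 of LPS with IDR-1018, 1 of IDR-1018, 5 of LPS and 2 of Vehicle. Sex was thus unevenly spread between LPS and Vehicle. Replicate 3 of the injured hemispheres without peptide carried Xist and Y-linked signal at once, whereas the uninjured array of that number carried Xist only, so results that rest on it are given without it too. The mean level of 60 ribosomal protein genes varied between arrays within groups, from 10.23 to 10.60 in the uninjured hemispheres without peptide, for example. In bulk tissue, fewer cells of a type and less RNA per cell cannot be told apart.

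Across the 8 groups, most subunit genes kept nearly the same level. A test of any difference among the 8 groups (limma's moderated F test, Benjamini-Hochberg adjusted p under 0.05 over all genes) called 2993 of 19937 genes, or 15%, and 3 of the 36 (8.33%). These were Psmd6 and Psmd12, which encode subunits of the 19S lid, and Psmd9. Their group means spanned 0.29 for Psmd6, 0.19 for Psmd12 and 0.30 for Psmd9 on the log2 scale. A wide span was not particular to called genes. Psmd10, uncalled, averaged 9.13 in Vehicle and 8.87 in the injured hemispheres with peptide, further apart than the means of Psmd12. The next 3 by p were the ATPase genes Psmc1 (adjusted p = 0.0505) and Psmc2 (0.121) and the alpha ring gene Psma3 (0.14).

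**Figure D1:**
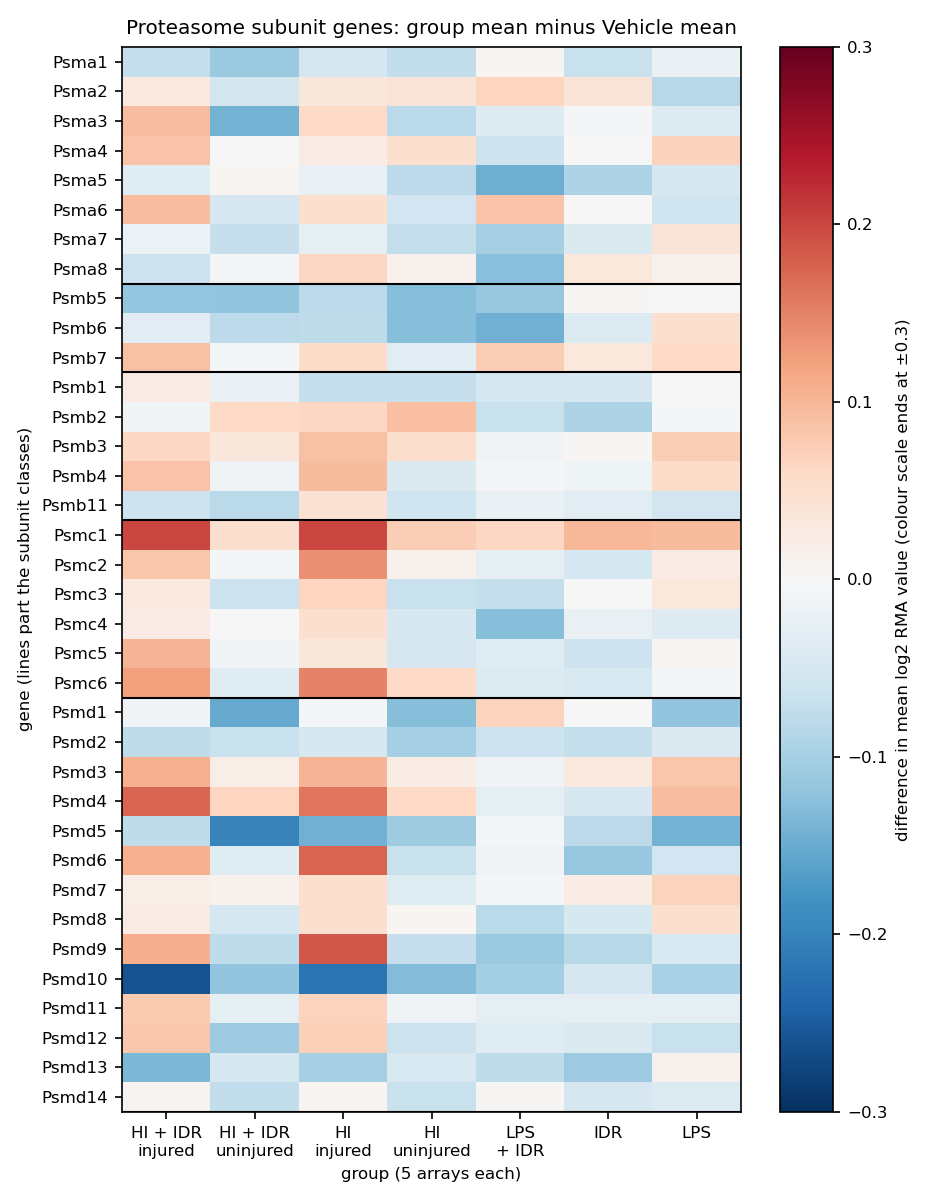
Heat map of the 36 genes (rows, parted by subunit class) in 7 groups (columns), coloured by the group mean minus the Vehicle mean of the log2 values, 5 arrays each. Most cells are pale, and the largest positive differences stand in the 2 columns of injured hemispheres: Psmc1, at 0.20 in both, with Psmd9, Psmd4 and Psmd6. The largest negative one is Psmd10 in the injured hemispheres with peptide (-0.26).

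Psmd6 had 10.75, 10.54, 10.47, 10.25 and 10.55 (log2 values of replicates 1 to 5) in the injured hemispheres with peptide, against 10.43, 10.37, 10.36, 10.43 and 10.26 in the uninjured ones. Without peptide it had 10.72, 10.55, 10.65, 10.59 and 10.40 in the injured hemispheres, against 10.41, 10.32, 10.35, 10.48 and 10.13 in the uninjured ones. The injured hemispheres had the 2 highest group means, 10.51 ± 0.18 with and 10.58 ± 0.12 without peptide (SD, n = 5), and overlapped the uninjured ones in both pairs. The other groups averaged 10.39 ± 0.074 in LPS with IDR-1018, 10.29 ± 0.085 in IDR-1018, 10.35 ± 0.048 in LPS and 10.41 ± 0.07 in Vehicle. The 8-group adjusted p was 0.0196. It was 0.0715 without replicate 1 and 0.0535 without replicate 3 of the injured hemispheres without peptide.

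Psmd12 had 10.11, 10.16, 10.02, 10.00 and 9.92 in the injured hemispheres with peptide, against 9.95, 9.87, 9.84, 9.75 and 9.87 in the uninjured ones. Without peptide it had 10.09, 9.94, 10.07, 10.06 and 10.02 in the injured hemispheres, against 9.97, 9.81, 9.85, 9.96 and 9.91 in the uninjured ones. Both injured groups had means above the other 6 groups, 10.04 ± 0.095 and 10.04 ± 0.057, while Vehicle averaged 9.97 ± 0.074 and the uninjured hemispheres with peptide were lowest at 9.86 ± 0.07. The 8-group adjusted p of 0.022 became 0.0541 or 0.0537 without replicate 1 or 2 of the injured hemispheres with peptide.

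Psmd9 had 8.15, 8.21, 8.44, 8.52 and 8.28 in the injured hemispheres with peptide, against 8.05, 8.09, 8.35, 7.98 and 8.21 in the uninjured ones. Without peptide it had 8.33, 8.44, 8.37, 8.21 and 8.64 in the injured hemispheres, against 7.94, 8.20, 8.34, 8.00 and 8.23 in the uninjured ones. Again the injured hemispheres had the highest means, 8.32 ± 0.16 with and 8.40 ± 0.16 without peptide, and the arrays overlapped the uninjured ones. Its adjusted p of 0.0428 was the most open to single arrays of the 3: it ran from 0.0205 to 0.141 over 40 fits that each left out 1 array, and exceeded 0.05 in 21 of them. With each array centred on its median, none of the 3 was called (adjusted p = 0.143 for Psmd6, 0.177 for Psmd12 and 0.0766 for Psmd9).

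**Figure D2:**
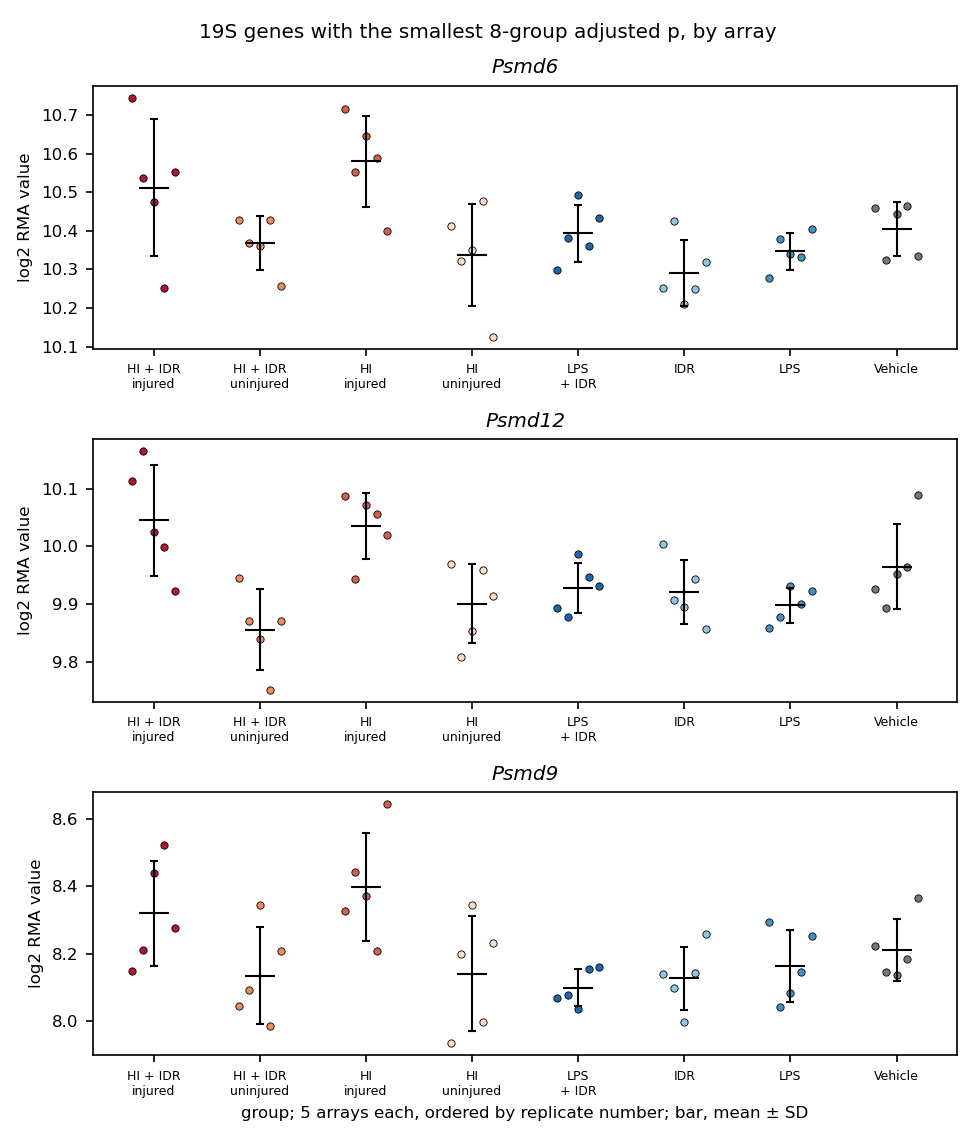
Log2 values of Psmd6, Psmd12 and Psmd9 (vertical axes) in each of the 40 arrays, by group, with the mean and SD of 5 arrays. The 2 injured groups have the highest mean in each panel, and their points overlap those of the uninjured hemispheres.

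The bases just upstream of these 3 genes and of Psmb5, the gene of the chymotrypsin-like catalytic subunit, are shown because NRF1 and its relative NRF2 are known to bind antioxidant response elements near subunit genes. Each line gives the 250 bases before the annotated transcript start, 5′ to 3′ on the gene's strand, from RefSeq (GRCm38.p6). The windows are chr14:14120946-14121195 for Psmd6 (minus strand), chr11:107479278-107479527 for Psmd12 (plus), chr5:123227940-123228189 for Psmd9 (plus) and chr14:54617996-54618245 for Psmb5 (minus). Capitals mark matches on either strand to TGACNNNGC, the core of the antioxidant response element, or to CCGGAAG, a motif bound by ETS factors. These motifs share no letters in the windows shown.
Psmd6: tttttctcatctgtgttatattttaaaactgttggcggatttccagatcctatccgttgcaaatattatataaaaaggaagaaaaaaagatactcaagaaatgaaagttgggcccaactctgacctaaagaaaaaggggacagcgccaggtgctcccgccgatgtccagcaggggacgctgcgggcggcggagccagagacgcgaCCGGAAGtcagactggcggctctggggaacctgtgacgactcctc
Psmd12: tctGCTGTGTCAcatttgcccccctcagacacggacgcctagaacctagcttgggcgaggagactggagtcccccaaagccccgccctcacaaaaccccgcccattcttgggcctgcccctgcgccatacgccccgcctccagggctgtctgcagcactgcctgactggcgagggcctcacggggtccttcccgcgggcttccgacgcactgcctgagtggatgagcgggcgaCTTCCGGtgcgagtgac
Psmd9: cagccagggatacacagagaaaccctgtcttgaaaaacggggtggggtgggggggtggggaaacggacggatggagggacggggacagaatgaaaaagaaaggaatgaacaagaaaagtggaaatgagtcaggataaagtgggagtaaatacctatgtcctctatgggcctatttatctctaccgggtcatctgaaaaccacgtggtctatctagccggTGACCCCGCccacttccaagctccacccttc
Psmb5: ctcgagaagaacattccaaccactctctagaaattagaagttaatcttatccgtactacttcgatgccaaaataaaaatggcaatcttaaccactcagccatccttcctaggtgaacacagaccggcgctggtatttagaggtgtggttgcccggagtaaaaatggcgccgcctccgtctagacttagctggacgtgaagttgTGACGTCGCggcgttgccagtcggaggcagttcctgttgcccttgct
Psmd6 held CCGGAAG only, 45 to 39 bases before the start. Psmd12 held both, at 247 to 239 and 17 to 11 bases before the start, each on the opposite strand. Psmd9 and Psmb5 held TGACNNNGC, at 31 to 23 and at 47 to 39 bases before the start.

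Promoter windows were found for 29 of the 36 genes (31 windows). TGACNNNGC was in 5 of these 31 windows (16.1%), those of Psmb5, Psmb6, Psmc6, Psmd9 and Psmd12, and in 10.2% of all 32851 windows. CCGGAAG was in 10 (32.3%), against 6.91% of all windows. Among the holders of CCGGAAG were the ATPase genes Psmc1, Psmc2 and Psmc6 and the lid genes Psmd6, Psmd11 and Psmd12. CCAAT was in 38.7% against 33.8%, and TATAAA in 9.68% against 12.4%. The TGACNNNGC match of Psmb6, 9 to 1 bases before the end of its window, lay downstream of the start given for this gene in the gene annotation. A match describes letters in the window and does not show binding.

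The injured was compared with the uninjured hemisphere to ask how HI injury altered subunit genes. With peptide, 0 of the 36 were called by limma, beside 498 of 19937 genes (2.5%). An unadjusted p under 0.05 was found for 3 of the 36 and for 2870 of all genes, a larger share. Without peptide, 0 of the 36 were called, beside 596 genes (2.99%). An unadjusted p under 0.05 was found for 5 of the 36 and for 2992 of all genes, again a larger share. The sizes were small: over all 36 genes, no 95% interval reached beyond 1.37-fold with peptide or 1.38-fold without. A change of 1.5-fold was thus outside the interval of every one of the 36 in both comparisons.

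Most differences nonetheless lay above 0. With peptide, 30 of the 36 were above 0, with a median of 0.085 (log2), while 49.9% of all genes were above 0, with a median of -0.0003. Without peptide, 29 were above 0, with a median of 0.078, against 54.7% and 0.013 for all genes. The ribosomal protein genes did much the same, with 50 of 60 above 0 with peptide (median 0.078) and 52 without (median 0.08). Centring each array on its median left medians for the 36 of 0.05 with and 0.048 without peptide.

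The 2 injury comparisons share no array. The sign was the same in both for 29 of the 36 genes (80.6%), compared with 71.2% of all genes, 77% of genes above the lower quartile and 86.7% of ribosomal protein genes. Above 0 in both were 26 of the 36 (72.2%), including all 6 ATPase genes and all 3 catalytic genes. The share was 37.9% of all genes, 40.2% of genes above the lower quartile and 78.3% of ribosomal protein genes. The ATPase genes ranged from 0.027 to 0.16 with peptide and from 0.085 to 0.13 without. None of the ATPase genes passed the test in either comparison. Below 0 in both were Psmd10, Psmb2, a beta ring gene, and Psmd13, a lid gene.

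By class, the alpha ring genes differed by -0.061 to 0.23 with and by -0.023 to 0.14 without peptide, with 6 of 8 above 0 in each. The 5 beta ring genes other than Psmb5, Psmb6 and Psmb7 ranged from -0.068 to 0.096 with peptide (4 above 0). They ranged from -0.028 to 0.14 without (3 above 0). Among the catalytic genes Psmb7 differed by 0.091 ± 0.072 and 0.089 ± 0.062, Psmb6 by 0.046 ± 0.14 and 0.053 ± 0.14, and Psmb5 by 0.0021 ± 0.069 and 0.05 ± 0.068. Of the 14 non-ATPase 19S genes, 11 were above 0 in each comparison. Psmd14, the gene of the deubiquitinase of the lid, differed by 0.081 ± 0.062 with and 0.074 ± 0.065 without peptide. The ubiquitin receptor gene Psmd4 differed by 0.11 ± 0.11 and 0.10 ± 0.10, and Psmd2, which encodes the other large base subunit beside that of Psmd1, by -0.009 ± 0.057 and 0.051 ± 0.06.

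**Figure D3:**
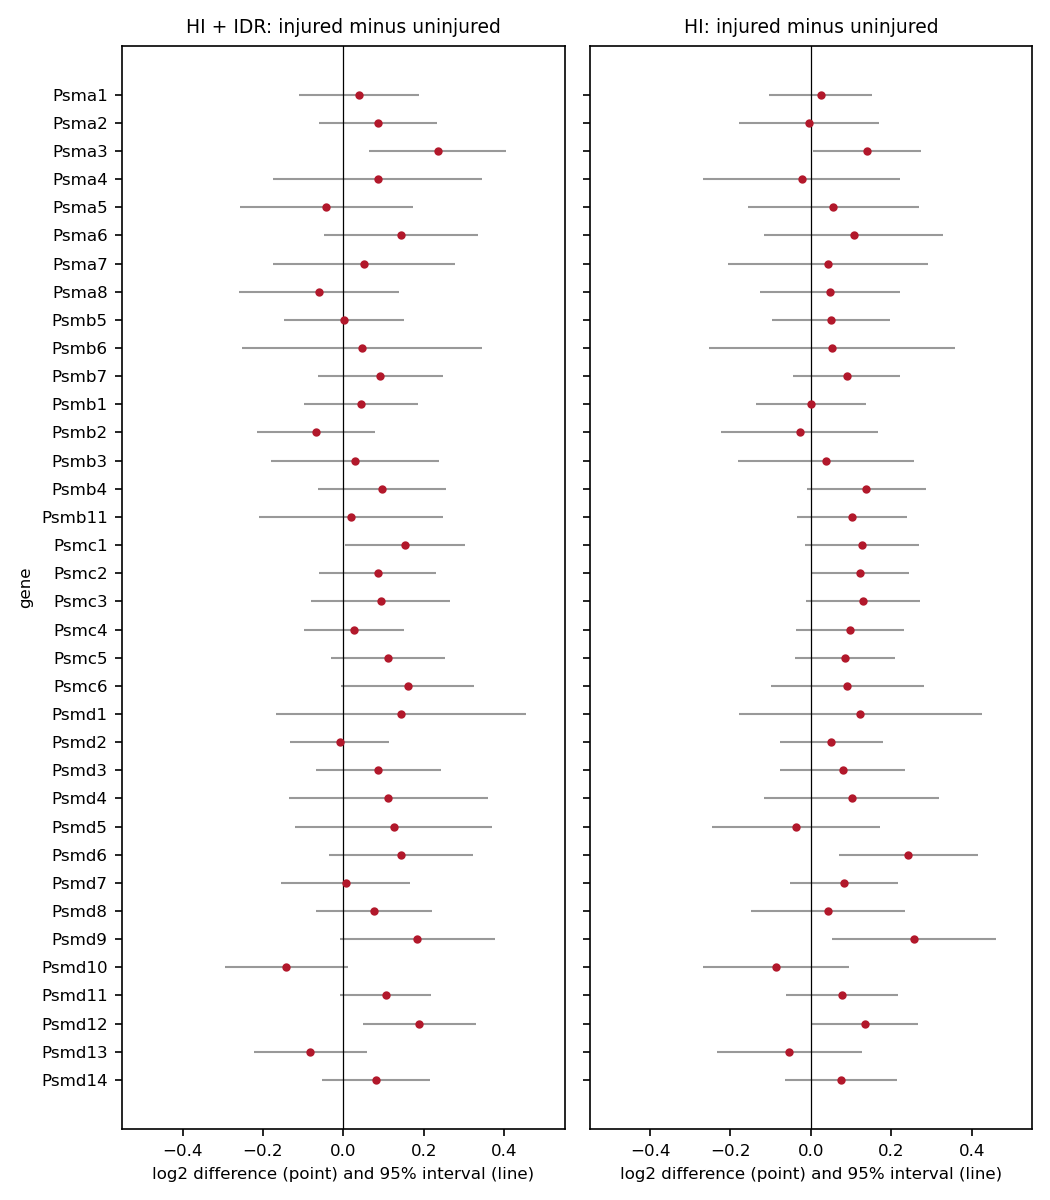
Log2 difference of the injured minus the uninjured hemisphere (horizontal axes) with its 95% interval for each of the 36 genes, with peptide on the left and without on the right, n = 5 arrays a group. Most points lie right of 0, no interval passes 1.37-fold on the left or 1.38-fold on the right, and most intervals include 0.

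With peptide, the smallest p belonged to Psma3, a gene of the alpha ring. It had 10.94, 11.29, 11.01, 10.84 and 10.92 in the injured hemispheres, against 10.80, 10.79, 10.75, 10.72 and 10.76 in the uninjured ones. The groups did not overlap, as in 2 of the 36 and 5.12% of all genes. The difference was 0.23 ± 0.079 (SE; adjusted p = 0.154), and one array, replicate 2, stood above the other injured ones. Psma3 has 3 probe sets, and the other 2 differed by 0.24 and 0.21. Psmd12 differed by 0.19 ± 0.065 (adjusted p = 0.168) and Psmc1 by 0.15 ± 0.069 (0.328).

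Without peptide, Psmd6 differed by 0.24 ± 0.08 (adjusted p = 0.138), Psmd9 by 0.26 ± 0.096 (0.202) and Psma3 by 0.14 ± 0.063 (0.314). Here the replicate numbers were taken to pair the arrays, since every same-numbered pair correlated above 0.1. Each array also varied most like the one of its own number in the other hemisphere. The labels do not give this pairing, which was judged from the same data. With the number as a block, limma called 2032 of 19937 genes (10.2%) and 2 of the 36, a smaller share, both higher in the injured hemispheres: Psmd6 (0.24 ± 0.051, adjusted p = 0.0168) and Psmd9 (0.26 ± 0.064, adjusted p = 0.0335). Psmd6 was higher on the injured side in 5 of 5 pairs, as was Psmd9. Without the pair numbered 3, 12.3% of all genes and the same 2 of the 36 were called, and the blocked differences were 0.23 ± 0.052 for Psmd6 (adjusted p = 0.0324) and 0.31 ± 0.056 for Psmd9 (0.0153).

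Some cell type markers moved with injury. The mean of the 8 neuron markers ran from 11.45 to 11.58 in the injured and 11.65 to 11.77 in the uninjured hemispheres with peptide, and from 11.39 to 11.61 in the injured and 11.66 to 11.76 in the uninjured ones without, with no overlap in either pair. Neurod6, 1 of 8 neuron markers, fell by 0.77 on the log2 scale with peptide (adjusted p = 0.0255) and by 0.73 without (0.0112), and 7 of the 8 lay below 0 in each comparison. Of 6 endothelium markers, Pecam1 rose by 0.46 ± 0.11 with (adjusted p = 0.0395) and 0.39 ± 0.08 without peptide (0.0176), and Cdh5 by 0.36 ± 0.074 with (0.0229). Without peptide, P2ry12, 1 of 6 microglia markers, differed by -0.45 ± 0.11 (0.0471) and Pdgfra, 1 of 6 of the oligodendrocyte lineage, by -0.35 ± 0.086 (0.0453), both called lower. Gfap, 1 of 6 astrocyte markers, differed by 0.38 ± 0.11 (0.104) and 0.38 ± 0.11 (0.0864), not past the test. The mean of the 6 microglia markers ran from 7.62 to 8.05 in the injured and 7.67 to 8.39 in the uninjured hemispheres with peptide, and from 7.77 to 8.07 in the injured and 7.86 to 8.19 in the uninjured ones without. The part of these markers in the subunit differences was not tested.

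LPS was compared with Vehicle, and LPS with IDR-1018 with IDR-1018 alone, 6 h after LPS. With peptide, 0 of the 36 genes were called, beside 294 of 19937 (1.47%). At an unadjusted p under 0.05 there were 1 of the 36 and 2089 of all genes. Without peptide, 0 were called, beside 166 (0.833%), and 0 of the 36 and 1240 of all genes had an unadjusted p under 0.05. The medians of the 36 were 0.0031 with peptide (all genes -0.022) and -0.003 without (all genes -0.018). No 95% interval reached beyond 1.26-fold with peptide or 1.31-fold without.

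With peptide, the smallest p were those of Psmb5 (-0.12 ± 0.054, adjusted p = 0.459), Psma8 (-0.16 ± 0.081, 0.535) and Psmd6 (0.10 ± 0.059, 0.582). Without peptide they were those of Psmc1 (0.095 ± 0.06, adjusted p = 0.921), Psmd10 (-0.098 ± 0.073, 0.924) and Psmd1, the gene of the largest base subunit (-0.12 ± 0.089, 0.924). Psmb11 differed by 0.013 ± 0.061 with and -0.054 ± 0.084 without peptide, at its low level.

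The genes of the immunoproteasome, by contrast, included calls. Psmb9 had 7.98, 8.33, 8.09, 7.96 and 8.13 in LPS with IDR-1018, against 7.61, 7.85, 7.78, 7.50 and 7.67 in IDR-1018. It had 8.16, 8.24, 8.05, 8.09 and 8.04 in LPS, against 7.69, 7.83, 7.53, 7.91 and 7.58 in Vehicle. The groups did not overlap in either pair. Psmb9 rose by 0.42 ± 0.082 with (adjusted p = 0.0198) and by 0.41 ± 0.079 without peptide (adjusted p = 0.0222). The call was lost in 4 of 10 fits that each left out 1 array with peptide (adjusted p = 0.0151 to 0.0628) and in 5 of 10 without (0.0126 to 0.0796).

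Psmb8 had 6.33, 6.62, 6.44, 6.45 and 6.40 in LPS with IDR-1018, against 6.01, 6.12, 6.23, 5.95 and 6.37 in IDR-1018. In LPS it had 6.84, 6.52, 6.72, 6.53 and 6.66, against 6.28, 6.24, 6.12, 6.09 and 6.38 in Vehicle, with no overlap. It rose by 0.43 ± 0.077 without peptide (adjusted p = 0.0133), and the difference of 0.31 ± 0.082 with peptide did not pass the test (0.0999). Psmb10 differed by 0.075 ± 0.064 with (0.713) and 0.28 ± 0.093 without peptide (0.415). Of the 5 genes of the immunoproteasome and PA28, an activator that caps the core, 1 rose with peptide and 2 rose without after LPS. Between hemispheres, 0 of them changed in either comparison. The unequal counts after LPS do not show that the peptide altered the rise, which limma tested as a difference of 2 differences. The LPS difference with peptide minus that without was -0.12 for Psmb8 (adjusted p = 0.864), 0.0083 for Psmb9 (0.989) and -0.20 for Psmb10 (0.86). None of these passed the test. With Xist as a covariate the LPS against Vehicle differences were 0.39 for Psmb8 (adjusted p = 0.273) and 0.36 for Psmb9 (0.41).

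None of the 3 constitutive catalytic genes, whose products these replace, passed the test. Psmb5 differed by -0.12 ± 0.054 with (95% interval -0.23 to -0.0028) and -0.0006 ± 0.057 without peptide (-0.12 to 0.12). Psmb6, of the caspase-like site, differed by -0.10 ± 0.069 (-0.25 to 0.045) and 0.049 ± 0.054 (-0.068 to 0.16), and Psmb7, of the trypsin-like site, by 0.041 ± 0.053 (-0.072 to 0.15) and 0.059 ± 0.063 (-0.076 to 0.19).

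Each immunoproteasome gene was then set against its constitutive counterpart within arrays, so that a shift common to both cancels, in an exact two-sided permutation test of 5 against 5 arrays whose smallest p is 0.00794. There were 12 such tests over 4 comparisons. The log2 difference Psmb8 minus Psmb5 was higher by 0.43 in LPS with IDR-1018 than in IDR-1018 (exact p = 0.00794, adjusted p = 0.0238), and by 0.43 in LPS than in Vehicle (exact p = 0.00794, adjusted p = 0.0238). Psmb9 minus Psmb6 was higher by 0.52 with peptide (exact adjusted p = 0.0238) and by 0.36 without (exact adjusted p = 0.0238). Psmb10 minus Psmb7 differed by 0.034 (exact adjusted p = 0.772) and 0.22 (0.0571), and neither passed the test. A difference within arrays shows unequal change of a pair, not that both genes changed: Psmb5 itself differed by -0.0006 ± 0.057 in LPS against Vehicle. Without LPS replicate 2 or 4, the adjusted p of Psmb9 minus Psmb6 in LPS against Vehicle was 0.0571 or 0.0714.

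Between hemispheres none of the 6 differences passed. Psmb8 minus Psmb5 differed by 0.13 with (exact adjusted p = 0.111) and -0.052 without peptide (0.829). Psmb9 minus Psmb6 differed by -0.018 and -0.018 (exact adjusted p = 0.937 for both), and Psmb10 minus Psmb7 by -0.12 and -0.11 (0.536 for both).

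**Figure D4:**
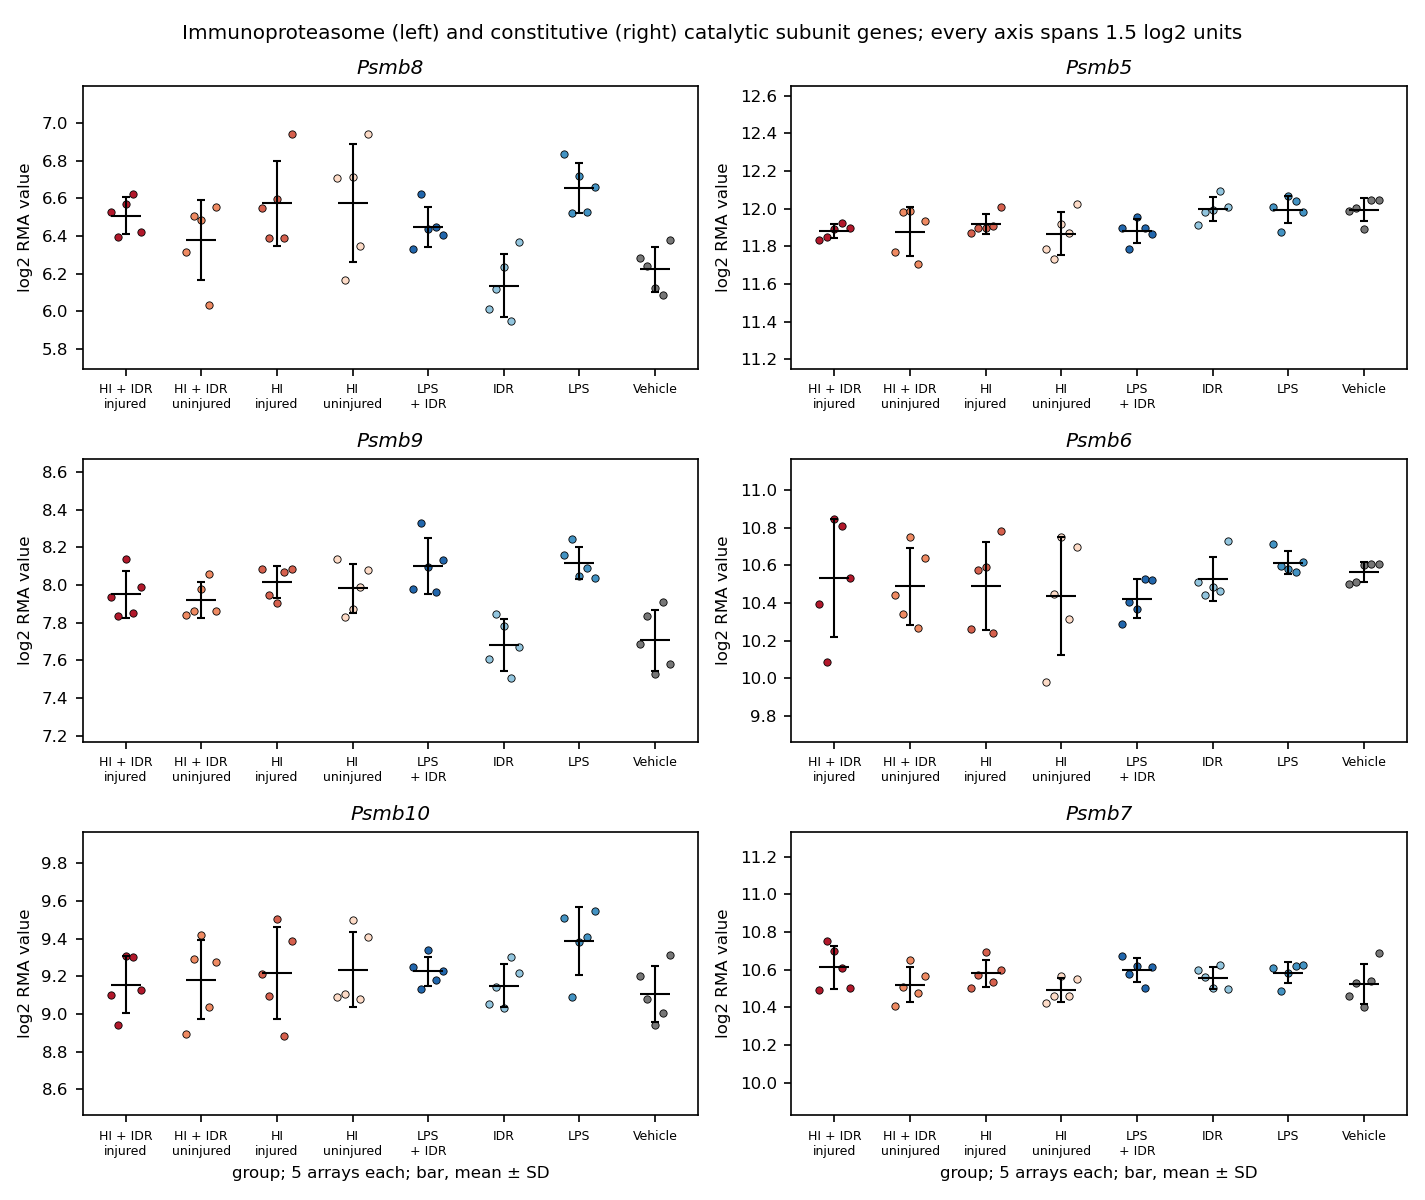
Log2 values of the immunoproteasome genes Psmb8, Psmb9 and Psmb10 (left) and of Psmb5, Psmb6 and Psmb7 (right) in every array, by group, with mean and SD of 5 arrays. Each axis spans the same range, and in Psmb9 the IDR-1018 and Vehicle means (7.68 ± 0.14 and 7.71 ± 0.16) lie below those of all 6 groups given LPS. In Psmb5 the IDR-1018 and Vehicle means (11.9995 and 11.9956) are the 2 highest of the 8 groups. The LPS mean (11.995) is nearly the same as that of Vehicle, and no Psmb5 difference between 2 groups passed limma's test.

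A few cell type markers moved with LPS as well. The mean of the blood monocyte markers (4 genes) ran from 4.70 to 5.16 in LPS with IDR-1018, against 4.41 to 4.59 in IDR-1018, and from 4.77 to 5.10 in LPS, against 4.39 to 4.65 in Vehicle. These means lay below the lower quartile of gene means, 6.04. Only Ms4a6c passed the test among the 4, rising by 1.34 ± 0.12 with (adjusted p = 4.56e-05) and 0.98 ± 0.063 without peptide (1.54e-06). Ccr2, another of them, differed by -0.12 ± 0.073 and -0.046 ± 0.098. Of 6 endothelium markers, Tek differed by -0.80 ± 0.13 with (adjusted p = 0.00531) and -0.85 ± 0.14 without peptide (0.00783), and Kdr by -0.63 ± 0.12 with (0.016), all called lower. With peptide, P2ry12 (-0.47 ± 0.11, 0.0433) and Siglech (-0.36 ± 0.077, 0.0349), 2 of 6 microglia markers, were called lower, and Clic6 (0.33 ± 0.066, 0.0198), 1 of 4 of the choroid plexus, higher. The part of these markers in the rise of Psmb8 and Psmb9 was not tested.

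The injured and uninjured hemispheres were also set against the groups without LPS or HI, which combines LPS, HI and the time of removal. Of the 36 genes, 0 were called in injured hemispheres with peptide against IDR-1018 (1171 of 19937 genes called, 5.87%; 6 of the 36 at an unadjusted p under 0.05). In injured hemispheres without peptide against Vehicle 0 were called (1663 genes, 8.34%; 5 of the 36 unadjusted). The uninjured hemispheres gave 0 called with peptide against IDR-1018 (40 genes, 0.201%; 0 unadjusted) and 0 without peptide against Vehicle (87 genes, 0.436%; 0 unadjusted). Of all genes, 3747, 4272, 1052 and 1312 had an unadjusted p under 0.05 in these comparisons, in that order, a larger share in each. These comparisons share control arrays with the LPS ones. The comparison with the most calls over all genes, injured hemispheres without peptide against Vehicle, thus held none of the 36.

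Psmd10, an X-linked gene that encodes the base chaperone also called gankyrin, had 8.82, 8.93, 8.72, 8.88 and 8.98 in injured hemispheres with peptide, against 9.19, 9.15, 8.94, 9.09 and 9.01 in IDR-1018. Without peptide it had 8.98, 8.82, 9.02, 8.96 and 8.76 in injured hemispheres, against 9.09, 9.27, 9.12, 9.12 and 9.04 in Vehicle. There the groups did not overlap, as in 3 of the 36 and 8.74% of all genes. The differences were -0.21 ± 0.069 (adjusted p = 0.102) and -0.22 ± 0.069 (0.0666). Of the 36, 26 with and 25 without peptide lay above 0, and Psmd10 was the lowest of all in both. Without the injured replicate 3 its difference from Vehicle was -0.25 ± 0.07, called at an adjusted p of 0.0471 (1 of the 36, beside 8.99% of all genes). With the Xist level as a covariate it was -0.23 (adjusted p = 0.137).

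With peptide, the ATPase gene Psmc5 followed at 0.16 ± 0.058 (adjusted p = 0.128) and Psmd6 at 0.22 ± 0.084 (0.159). Without peptide, the ATPase gene Psmc1 had 10.37, 10.25, 10.54, 10.29 and 10.32 in injured hemispheres, against 10.13, 10.21, 10.05, 10.21 and 10.17 in Vehicle. Its groups did not overlap, as in 3 of the 36 and 8.74% of all genes, and it differed by 0.20 ± 0.067 (adjusted p = 0.0842). Replicate 3, the array with Xist and Y-linked signal at once, held its highest injured value. Over 10 fits that each left out 1 array, the difference ran from 0.15 to 0.23 (adjusted p = 0.0898 to 0.187). In the same comparison Psmd6 differed by 0.18 ± 0.069 (0.145). All 6 ATPase genes were above 0 in both comparisons, with medians of 0.12 with and 0.10 without peptide, beside -0.0063 and -0.013 for all genes.

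In the uninjured hemispheres the smallest p belonged, with peptide, to Psma3 (-0.14 ± 0.066, adjusted p = 0.975), Psmb2 (0.15 ± 0.079, 1) and Psmb5 (-0.12 ± 0.071, 1), and, without peptide, to Psmb5 (-0.13 ± 0.068, adjusted p = 0.835), Psmd2 (-0.10 ± 0.058, 0.881) and Psmd10 (-0.13 ± 0.08, 0.888). None is a called change.

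The peptide was tested in 4 comparisons, and limma called 0 of the 36 genes and 0 of 19937 genes (0%) in each. At an unadjusted p under 0.05 there were 0 of the 36 and 321 of all genes for IDR-1018 against Vehicle, 5 and 2674 for LPS with IDR-1018 against LPS, 0 and 277 for the injured hemispheres with against without peptide, and 0 and 376 for the uninjured ones. The widest 95% intervals over the 36 genes ended at 1.24-, 1.28-, 1.28- and 1.27-fold in these 4 comparisons. So each gene's peptide difference was bounded well under 1.5-fold, but a p above the threshold does not show that it was nil.

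The smallest p of these belonged to Psmb6 after LPS, with 10.29, 10.41, 10.37, 10.53 and 10.52 in LPS with IDR-1018, against 10.72, 10.60, 10.58, 10.56 and 10.62 in LPS. Its groups did not overlap, as in 2 of the 36 and 2.76% of all genes, and the difference was -0.19 ± 0.06 (adjusted p = 0.326). Psmd1 (0.19 ± 0.078, 0.344) and the lid gene Psmd8 (-0.13 ± 0.054, 0.347) followed. The mean ribosomal protein level ran from 10.27 to 10.38 in LPS with IDR-1018 and from 10.32 to 10.61 in LPS, and its part in these differences was not tested. In IDR-1018 against Vehicle the smallest p were those of Psmd6 (-0.11 ± 0.06), Psmc1 (0.099 ± 0.056) and Psma5 (-0.093 ± 0.057), each at an adjusted p of 1. For the injured hemispheres they were those of Psmb1 (0.094 ± 0.062), Psma8 (-0.13 ± 0.088) and Psmc5 (0.069 ± 0.06), and for the uninjured ones those of Psma2 (-0.093 ± 0.078), Psmc6 (-0.095 ± 0.079) and Psma3 (-0.062 ± 0.06), again at an adjusted p of 1.

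Whether the peptide altered the response itself was tested as a difference of 2 differences. For LPS, 0 of the 36 genes were called, beside 1 of 19937 (0.00502%). An unadjusted p under 0.05 was found for 873 of all genes and, a smaller share, for 1 of the 36. This was Psmd6, whose LPS difference was higher with peptide by 0.16 ± 0.074 (adjusted p = 0.86), ahead of Psmb6 (-0.15 ± 0.084, 0.86) and Psmc1 (-0.13 ± 0.073, 0.86). The sign of the Psmc1 LPS difference with peptide depended on the probe set. It was -0.036 for the one used and 0.12 for the other, beside 0.095 and 0.081 without peptide. For injury, 0 were called, beside 0 genes (0%), and 0 of the 36 and 361 of all genes had an unadjusted p under 0.05. The first 3 by p were Psmd5 (0.16 ± 0.16), Psma3 (0.096 ± 0.097) and Psmc4 (-0.071 ± 0.075), each at an adjusted p of 1. Intervals ended at 1.4-fold for LPS and 1.4-fold for injury.

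Genes around the proteasome were described by list. Of 7 measured genes listed around NRF1, which include that of its relative NRF2, 2 rose with injury in both comparisons. They were Nfe2l2, which encodes NRF2, and Maff, a small Maf partner. Nfe2l2 rose by 0.64 ± 0.12 with (adjusted p = 0.0123) and 0.55 ± 0.093 without peptide (0.00648), and Maff by 0.54 ± 0.12 (0.0262) and 0.50 ± 0.11 (0.0292). Leaving out 1 array at a time lost Maff in 5 of 10 fits with (adjusted p = 0.0247 to 0.08) and 7 of 10 without peptide (0.0174 to 0.0761), but Nfe2l2 in none. Nfe2l1 itself differed by 0.077 ± 0.08 (0.76) and 0.12 ± 0.078 (0.518). After LPS, 0 of the 7 were called with or without peptide, and Nfe2l1 differed by -0.05 ± 0.056 (0.779) and -0.06 ± 0.053 (0.933).

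In injured hemispheres against the groups without LPS or HI, 2 of the 7 genes listed around NRF1 and NRF2 rose with and 1 without peptide. Nfe2l2 rose by 0.78 ± 0.11 with (adjusted p = 0.00144) and 0.71 ± 0.086 without peptide (0.000146). Psmg2, 1 of 5 measured 20S assembly chaperones, fell: its differences were -0.34 ± 0.065 (0.00817) and -0.24 ± 0.066 (0.0344). Sqstm1, 1 of 11 shuttle and unfolding factors and the gene of the autophagy receptor p62, rose by 0.25 ± 0.06 (0.0274) and 0.24 ± 0.057 (0.0204). Psmb8 rose by 0.37 ± 0.083 (0.0198) and 0.35 ± 0.10 (0.0441). Psmb9 differed by 0.27 ± 0.08 with peptide (0.0712) and rose by 0.31 ± 0.08 without (0.0276), and whether these 2 differ was not tested. With 1 array left out, these calls were lost in 0 of 10 and 7 of 10 fits for Psmg2 (adjusted p = 0.00791 to 0.0281 and 0.0141 to 0.104), in 6 of 10 and 4 of 10 for Sqstm1 (0.0167 to 0.0745 and 0.0138 to 0.0541), in 2 of 10 and 7 of 10 for Psmb8 (0.00658 to 0.0596 and 0.0353 to 0.114), and in 6 of 10 for Psmb9 without peptide (0.0175 to 0.0727).

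In these comparisons cell type markers moved too. Of 4 monocyte markers, 3 rose with peptide against IDR-1018, Ms4a6c by 1.17 ± 0.16 (adjusted p = 0.00135), Chil3 by 0.48 ± 0.10 (0.0141) and Plac8 by 0.43 ± 0.09 (0.0125), and 2 rose without peptide against Vehicle, Ms4a6c by 1.19 ± 0.11 (1.08e-05) and Plac8 by 0.54 ± 0.14 (0.0305). The neutrophil marker S100a8, 1 of 7, rose with peptide by 0.29 ± 0.059 (0.0124). In IDR-1018, S100a8 averaged 4.87, Chil3 3.13 and Plac8 4.88, all below the lower quartile of gene means (6.04), so these signals were low. P2ry12 differed by -0.63 ± 0.11 with (0.00493) and -0.61 ± 0.09 without peptide (0.000776) and Neurod6 by -0.75 ± 0.16 (0.0166) and -0.86 ± 0.14 (0.00207), all called lower. Gfap rose by 0.48 ± 0.12 (0.0337) and 0.63 ± 0.10 (0.00138), Aif1, a microglia marker, by 0.34 ± 0.066 (0.00851) and 0.37 ± 0.10 (0.0351), and Pecam1 and Cdh5 were called higher in both. In all, 2 of 6 microglia, 2 of 6 endothelium, 1 of 8 neuron, 1 of 6 astrocyte and 1 of 6 oligodendrocyte lineage markers passed with peptide, and 2, 2, 2, 2 and 3 without. The part of these markers in the calls was not tested.

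Of 13 measured regulators and associated factors, such as the deubiquitinase gene Usp14, 0 were called in any of the 12 comparisons.

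Within groups, the 36 genes did not vary as a unit. Over the 40 arrays, after each group's mean was taken off, the median correlation of a pair among the 34 genes above the lower quartile was r = 0.141, and 331 of 561 pairs were above 0. Many genes instead followed, or ran against, the mean of the 60 ribosomal protein genes. Pearson's r with it was 0.95 for Psmd4, the gene of a ubiquitin receptor, 0.94 for Psmb3 and 0.91 for Psma4, but -0.94 for Psmd1, -0.76 for Psmd5 and -0.74 for Psma6. The median of the subunit genes had r = 0.71 with the ribosomal mean. Of the genes called among the groups, Psmd9 had r = 0.85, but Psmd6 had -0.40 and Psmd12 -0.13. All 6 ATPase genes lay above 0, from 0.16 for Psmc2 to 0.74 for Psmc6. These points share arrays and the normalisation of each array, so they describe the arrays.

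**Figure D5:**
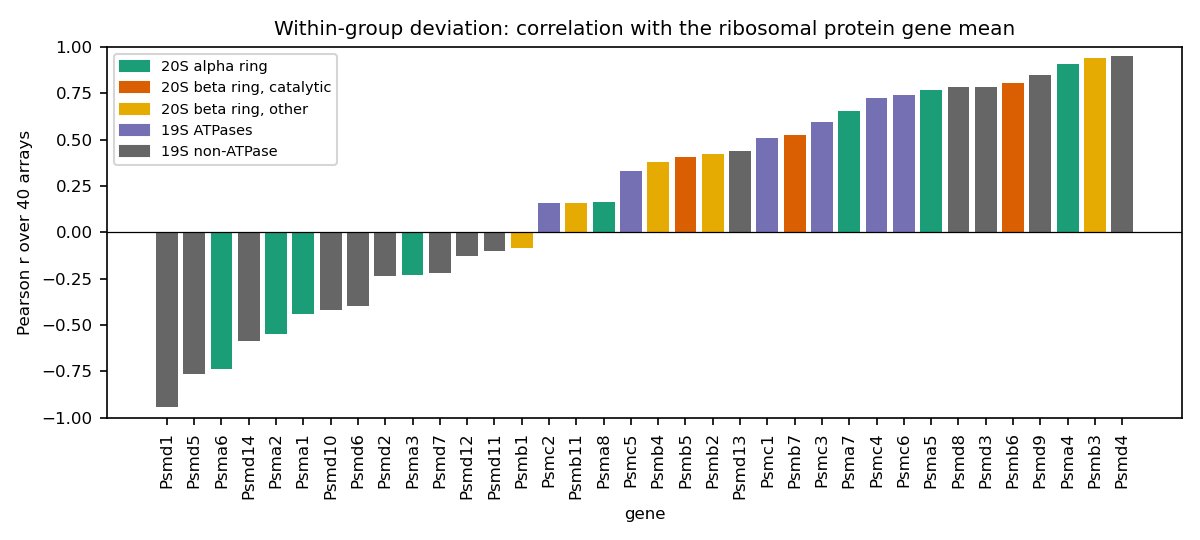
Pearson's r (vertical axis) between each gene's deviation from its group mean and that of the mean of 60 ribosomal protein genes, over 40 arrays, with bars coloured by subunit class. Bars run from -0.94 for Psmd1 to 0.95 for Psmd4, and members of the alpha ring and of the 19S cap stand at both ends.

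The genes also differed in their spread within groups. The pooled SD was 0.22 for Psmd1, 0.20 for Psmb6 and 0.18 for Psma4, but 0.049 for Psmd2, 0.052 for Psmd11 and 0.064 for Psmd12. With the ribosomal protein mean as a covariate, chosen after seeing the data, Psmd1 was called higher in the injured hemisphere, by 0.28 ± 0.065 with (adjusted p = 0.0188) and 0.27 ± 0.056 without peptide (0.013). With this covariate 2 of the 36 were called in each comparison, beside 10.2% of all genes with and 8.32% without peptide, both larger shares. Without the covariate the differences of Psmd1 were 0.14 ± 0.14 (0.75) and 0.12 ± 0.14 (0.78). In the hemispheres without peptide, Psmd9 differed by 0.18 ± 0.069 with the covariate (adjusted p = 0.132), against 0.26 ± 0.096 without it (0.202). Psmd6 differed there by 0.28 ± 0.073 with the covariate (0.0349), against 0.24 ± 0.08 without it (0.138). These fits held no replicate block.

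For 5 of the 36, Psma3, Psma5, Psmb3, Psmc1 and Psmd2, several probe sets carried the symbol, so their signal may be split between near-identical copies and is uncertain. In the injury comparison the other probe set of Psmc1 differed by 0.11 with and 0.098 without peptide, against 0.15 and 0.13 for the one used. That of Psmd2 differed by 0.01 and 0.043, against -0.009 and 0.051, and that of Psma5 by 0.021 and 0.025, against -0.042 and 0.056, so the sign of Psmd2 and Psma5 with peptide depended on the probe set. Ubiquitin genes were not analysed here.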

How the data were processed

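RNA of 40 mouse brain samples (RNeasy lipid tissue kit with DNase, per the labels' protocols) was measured on 1-colour Affymetrix arrays, 5 in each of 8 groups. The deposited values are log2 expression per probe set, normalised by the authors with RMA in the affy package, per the submitters' processing notes; versions and genome build are not given in the sources used here. RMA pulls the arrays to a common distribution, and array medians lay between 6.99 and 7.13, so a shift of all genes is not visible. The number of arrays limits the precision.

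Of 34760 probe sets, 21640 had 1 gene symbol in the platform annotation, 1321 several and 11799 none. The first kind gave 19937 genes, the highest-mean probe set standing for each; 954 genes had several. Comparisons were fitted with limma 3.58.1 in R 4.3.3 to the arrays of the groups compared, with Benjamini-Hochberg adjusted p under 0.05 over all genes; the fits were checked on simulated data. Genes were named by rule: called members, or the 3 smallest p in each comparison, the 6 smallest p over 8 groups, the catalytic genes and called genes of the pathway lists, with others named only to describe a class or a correlation. Members and lists were chosen with earlier results of these data known. Differences within arrays were tested by exact permutation with Benjamini-Hochberg adjustment over 12 tests. Replicate numbers were taken to pair arrays where, after group means were taken off, every same-numbered pair correlated above 0.1. The injured and uninjured hemispheres without peptide did (0.392 to 0.646), as did injured hemispheres without peptide and Vehicle (0.116 to 0.443), where the block called 0 of the 36. Alternatives were a fit to all groups, the block, Xist, a filter on low signal, trend with robust, all probe sets averaged, median-centred arrays, a 1.2-fold minimum and leaving out each array; a ribosomal covariate and the block without number 3 were added after seeing the data. The interval of a difference is limma's 95% interval. Promoter bases came from RefSeq (GRCm38.p6).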

Additional observations from a re-analysis of the deposited data

Results flagged for a closer look

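Of 128 groups of 5 arrays tested, over 16 genes, 4 held an array whose gap to its nearest neighbour exceeded 0.71 of the group's range; chance gives about 1 in 20. Psmb5 was 12.01 in replicate 5 of the injured hemispheres without peptide (others 11.87 to 11.91). Psmb6 was 10.73 in replicate 5 of IDR-1018 (others 10.44 to 10.51). Psmb7 was 10.49 in replicate 2 of LPS (others 10.58 to 10.62). Nfe2l2 was 8.35 in replicate 1 of LPS (others 8.78 to 8.95).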

How the results depend on the processing

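Over each main result under each alternative, 234 values kept their direction and their side of the threshold (or, for counts, stayed within 1.5 times), and 13 moved. These 13 belong to 5 counts of the 36 genes called, several moving under more than 1 alternative. The percentages are of all genes called in the same fit. For the injured against the uninjured hemisphere with peptide, 0 became 2 in the fit to all groups (Psma3, Psmd12; 7.18%) and 2 with the ribosomal covariate (Psma3, Psmd1; 10.2%). Without peptide it became 2 in the fit to all groups (Psmd6, Psmd9; 7.18%), 2 with the ribosomal covariate (Psmd1, Psmd6; 8.32%), 2 with the replicate block (10.2%), and 2 with the block and number 3 left out (12.3%). For injured hemispheres with peptide against IDR-1018 it became 2 in the fit to all groups (Psmc5, Psmd6; 9.58%) and 1 with the ribosomal covariate (Psmd6; 16.5%). For injured hemispheres without peptide against Vehicle it became 1 in the fit to all groups (Psmc1; 11.1%), and 1 with the filter (12.7%) and 1 with trend and robust (9.73%), both Psmd10, which was lower. The 8-group count of 3 became 5 with hemispheres of 1 number as a random block (Psmd6, Psmd12, Psmd9, Psmc1, Psma3; 18.4%) and 1 with centred arrays (Psmb5; 15.7%). In each of these fits the 36 held a smaller share of calls than all genes. The fit to all groups shares 1 estimate of the spread over more arrays; otherwise the cause was not tested.

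With the number as a block, the pairing changed no other count of calls among the 36. In the hemispheres with peptide, where 3 of 5 numbers correlated best with their own (0.088 to 0.589), it called 0. Against IDR-1018 it lost Psmb8 and Sqstm1, though there the numbers did not pair the arrays.

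With 1 array left out, the count ran from 0 to 1 for injured hemispheres without peptide against Vehicle (1 without injured replicate 3), from 0 to 1 with peptide against IDR-1018 (1, Psmd6, without injured replicate 4) and from 1 to 4 over 8 groups. For LPS against Vehicle, the within-array differences ran from 0.19 to 0.27 for Psmb10 minus Psmb7, past the threshold without LPS replicate 2 (exact adjusted p = 0.0476), and from 0.31 to 0.41 for Psmb9 minus Psmb6. Those between hemispheres turned sign: Psmb8 minus Psmb5 without peptide ran from -0.12 to 0.0007, and Psmb9 minus Psmb6 from -0.10 to 0.077 with and -0.12 to 0.13 without peptide. None of these hemisphere values passed the test. Single genes that turned sign between hemispheres, all uncalled, were Psmb8 without peptide (-0.11 to 0.089, and 0.025 with the block and number 3 left out), Psmb9 with (-0.019 to 0.064, and -0.0067 with centred arrays) and without peptide (-0.0033 to 0.074), and Psmb10 with (-0.099 to 0.032) and without (-0.091 to 0.064).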
